A study of Mus musculus with 335 samples.

Results

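Tek and Tie1 are the 2 receptors of the angiopoietin-Tie pathway, and Angpt1 is the ligand that activates Tek. They were taken by name, as 3 of the 13448 entries with a gene symbol in the deposited count table, and all 3 were measured. Wild-type mouse embryos at E11.5 gave 335 single cells of the AGM (aorta-gonad-mesonephros), whose RNA was sequenced by Smart-seq2, a full-length method that does not record the strand. The AGM holds the dorsal aorta, where the first haematopoietic stem cells (HSCs) arise from endothelium. Sorting gave 4 groups: 65 cells carrying EPCR and CD45 (HSC), 88 Pdgfrb+Ngfr- cells from the ventral side (Mesenchymal), 93 Ngfr+Pdgfrb- cells from the dorsal side (Dorsal) and 89 Ngfr+Pdgfrb- cells from the ventral side (Ventral). Each group was 1 sequencing pool and no animal, litter or culture is named, so each group was treated as 1 sample, no test was made, and a difference between groups cannot be told apart from a difference between pools.

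Tek (also called Tie2) is a receptor tyrosine kinase of endothelial cells and of HSCs. Angpt1, usually made by pericytes, mesenchymal cells and blood cells, clusters and activates it, which promotes vessel stability and, in adult bone marrow, has been linked to HSC quiescence. Tie1 binds no angiopoietin tightly by itself and modulates Tek within shared complexes, and Angpt2 can act as an agonist or an antagonist of Tek, depending on context.

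On GRCm38, with gene models of GENCODE M21, Tek (ENSMUSG00000006386.15) lay on chromosome 4 from 94739289 to 94874976 on the plus strand and had 23 exons in its longest coding transcript. Tie1 (ENSMUSG00000033191.14) lay on the same chromosome from 118471191 to 118490061 on the minus strand and had 22 exons. Angpt1 (ENSMUSG00000022309.9) lay on chromosome 15 from 42424723 to 42676977 on the minus strand and had 9 exons. Its exons overlapped the antisense gene Gm17473, so reads from the shared stretch could come from either gene.

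The stretches just before the RefSeq starts of both receptor genes are shown because both genes were high in the same group. The 250 bases before the RefSeq start (build GRCm38.p6) are printed 5′ to 3′ on the strand of the gene. Capitals mark GGAA or TTCC, the core that ETS factors bind, and GATA or TATC, the core that GATA factors bind. The Tek sequence is chr4:94739039-94739288 on the plus strand and the Tie1 sequence is chr4:118489850-118490099 on the minus strand. Most of the Tie1 window lies inside the GENCODE M21 gene model given above, which begins further upstream than the RefSeq start, while the Tek window ends where the GENCODE model begins. RefSeq's promoter table matched 2 of the 3 members, Tek and Tie1.
Tek: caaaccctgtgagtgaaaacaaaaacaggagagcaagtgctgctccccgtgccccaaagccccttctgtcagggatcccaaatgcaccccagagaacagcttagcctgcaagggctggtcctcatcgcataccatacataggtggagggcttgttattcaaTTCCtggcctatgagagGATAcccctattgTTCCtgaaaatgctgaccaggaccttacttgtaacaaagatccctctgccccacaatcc
Tie1: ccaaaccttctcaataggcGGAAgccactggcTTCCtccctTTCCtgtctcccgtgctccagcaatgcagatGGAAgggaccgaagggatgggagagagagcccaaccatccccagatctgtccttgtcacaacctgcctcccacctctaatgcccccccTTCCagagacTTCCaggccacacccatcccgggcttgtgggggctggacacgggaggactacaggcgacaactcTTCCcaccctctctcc
GGAA, on either strand, stood at 2 places before Tek and at 7 places before Tie1, against a median of 3 over the 32851 windows of this length in the RefSeq table, of which 93.4% held at least 1. GATA, on either strand, stood once before Tek and was not in the Tie1 window, and 53.6% of all windows held it. The motifs do not overlap one another, and these matches are a description of letters and not of bound sites.

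Group levels are sums of the authors' estimated counts over cells, per 1000000 counts of the group (CPM), with exact Poisson 95% limits that cover counting error only. Group totals were 82516453 counts in HSC, 68560755 in Mesenchymal, 108409099 in Dorsal and 110598792 in Ventral, and the median cell had 943772, 505916, 1033890 and 574689 counts in the same order. For shares of cells, every cell was randomly thinned to a depth of 310000 counts and called positive with at least 5 counts, which kept 64 HSC, 69 Mesenchymal, 92 Dorsal and 80 Ventral cells and left out 1, 19, 1 and 9. The sort genes were positive in most but not all cells of their groups: Procr, which encodes EPCR, was positive in 53 of 64 HSC cells, Ptprc, which encodes CD45, in 59 of 64, Pdgfrb in 53 of 69 Mesenchymal cells, and Ngfr in 74 of 92 Dorsal and 43 of 80 Ventral cells. HSC cells carried genes of both endothelium and blood: the median HSC cell had at least 5 counts of 15 of 24 endothelial markers and of 13 of 20 haematopoietic stem and progenitor markers, against a median of 2 endothelial markers in each of the 3 other groups. Numbers of markers per cell, here and below, are without thinning, so they are not matched for depth between groups. The 4 pools drew on 96 pairs of well indices, each used in 2 or more pools and 55 in all 4. Cells were therefore told apart by pool and index pair together.

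In HSC, Tek was carried by most cells at very different levels, Tie1 by nearly all cells at a level more even relative to its median, and Angpt1 by nearly all cells. Outside HSC, Tek and Tie1 were carried by few cells, whereas Angpt1 was carried by a minority of Mesenchymal cells and by few Dorsal or Ventral cells. All 3 members were at least 2-fold higher in HSC than in each of the 3 other groups, a pattern that 6.79% of 13446 genes showed. The distribution over single cells shows these patterns side by side.

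**Figure D1:**
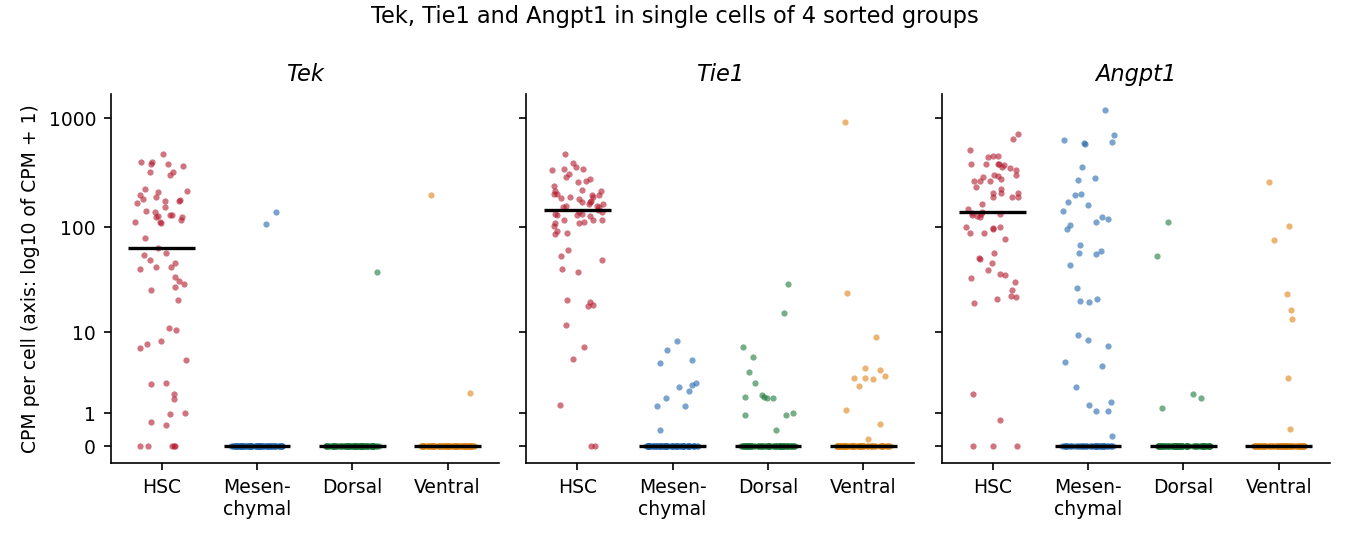
CPM of Tek, Tie1 and Angpt1 in each of 65 HSC, 88 Mesenchymal, 93 Dorsal and 89 Ventral cells, on an axis of log10 of CPM + 1. Each point is a cell, not thinned, and each bar is the median of the group. The HSC medians were 63.5 CPM for Tek, 144 CPM for Tie1 and 138 CPM for Angpt1, and the median was 0 for every gene in each other group.

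Tek, the receptor that binds Angpt1 directly, ranged in HSC cells from 0 to 469 CPM per cell, with a median of 63.5 CPM and quartiles of 8.18 and 176 CPM. Among the 65 HSC cells 5 had no Tek count, and 1 cell, HSC 12, held 16.03% of the group's Tek counts. In Mesenchymal cells Tek ran from 0 to 138 CPM with a median of 0, in Dorsal cells from 0 to 38.5 CPM with a median of 0, and in Ventral cells from 0 to 199.6 CPM with a median of 0. The HSC cells thus spread from 0 to values above every other cell, and the groups overlapped at 0 and in 4 cells outside HSC with at least 5 counts.

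As a group level, Tek stood at 133 CPM (130 to 135) in HSC, 0.475 CPM (0.331 to 0.676) in Mesenchymal, 0.323 CPM (0.225 to 0.449) in Dorsal and, in Ventral, 1.014 CPM (0.834 to 1.22). The order of the last 3 rests on few cells: 2 Mesenchymal cells, 1 Dorsal cell and 1 Ventral cell. On the scale log2(CPM + 1), HSC was higher by 6.50 than Mesenchymal, by 6.66 than Dorsal and by 6.05 than Ventral. The unlogged ratio to Ventral was 131 (109 to 159). After thinning, 45 of 64 HSC cells were Tek positive (70.3%, exact Clopper-Pearson limits 57.6 to 81.1), against 0 of 69 Mesenchymal cells (upper limit 5.21%), 1 of 92 Dorsal cells (1.09%) and 1 of 80 Ventral cells (1.25%). With a threshold of 1 count the HSC share was 85.9%, so many Tek-negative HSC cells held some Tek counts.

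Tie1, the partner receptor, ranged in HSC cells from 0 to 469 CPM (highest in HSC 30), with a median of 144 CPM and quartiles of 88.9 and 202 CPM. As multiples of the median, its quartiles lay closer to it than those of Tek, and 2 HSC cells had no Tie1 count. Mesenchymal cells ran from 0 to 8.26 CPM, Dorsal cells from 0 to 29.3 CPM and Ventral cells from 0 to 921 CPM, each with a median of 0. The single highest Tie1 value of the series was therefore outside HSC, in the cell Ventral 57, while the next Ventral cell had 24.1 CPM.

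The group level of Tie1 was 142 CPM (140 to 145) in HSC, 0.354 CPM (0.224 to 0.521) in Mesenchymal, 0.821 CPM (0.659 to 1.01) in Dorsal and, in Ventral, 4.97 CPM (4.57 to 5.41). Ventral 57 held 93.3% of the Ventral counts, and without it the Ventral level was 0.335 CPM, within the limits of the Mesenchymal level. HSC was higher by 6.72 on the log2 scale than Mesenchymal, by 6.30 than Dorsal and by 4.58 than Ventral. Without Ventral 57, a choice made after seeing the data, the smallest of the 3 differences was 6.30 on the log2 scale, that to Dorsal. After thinning, 59 of 64 HSC cells were Tie1 positive (92.2%, 82.7 to 97.4), against 0 of 69 Mesenchymal cells (upper limit 5.21%), 2 of 92 Dorsal cells (2.17%) and 2 of 80 Ventral cells (2.5%).

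Ventral 57 was also the only Ventral cell with at least 5 Tek counts. It had 199.6 CPM of Tek, which was 99.2% of the Tek counts of its group, and no Angpt1 count. It had at least 5 counts of 22 of 24 endothelial markers, of 4 of 20 haematopoietic stem and progenitor markers, of 1 of 18 mesenchymal markers and of 1 of 15 neural crest markers. Among them Emcn stood at 2355 CPM, Aplnr at 1521 CPM, Plvap at 1496 CPM and Kdr, the main VEGF receptor of endothelium, at 1167 CPM, and the sort gene Ngfr had 0 counts in it. Of the 16 other Ventral wells that share an index with it, 3 had at least 1 Tie1 count and none had 5. Of the 72 Ventral wells that share no index with it, 9 had at least 1 Tie1 count and 2 had at least 5.

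The other cells outside HSC with at least 5 counts of a receptor, before thinning, stood apart by their markers in part. Dorsal 33, with the only Dorsal Tek counts (34.98), and Dorsal 1, Dorsal 88 and Ventral 84, with 14.3, 22.5 and 11.8 Tie1 counts, each had at least 5 counts of 13 of 13 macrophage markers, while the median Dorsal and Ventral cell had 1 and the median HSC cell had 2. In all, 12 Dorsal and 12 Ventral cells had 5 or more of these markers. Most of those cells had fewer than 5 counts of either receptor. Dorsal 35, Dorsal 58, Dorsal 80 and Ventral 39 had between 5.95 and 12.9 Tie1 counts with 0 to 2 macrophage markers. The Mesenchymal cells with Tek, Mesenchymal 2 and Mesenchymal 29, had 17.5 and 15.05 counts and only 126979 and 141299 counts in all, so both were left out by thinning. The part of these markers and of depth in the values was not tested.

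Angpt1, the ligand, ranged in HSC cells from 0 to 718 CPM, with a median of 138 CPM and quartiles of 50.8 and 299 CPM. In Mesenchymal cells it ranged from 0 to 1182 CPM with a median of 0, and 49 of 88 cells had no count. Dorsal cells ran from 0 to 112 CPM and Ventral cells from 0 to 259 CPM, both with a median of 0. Mesenchymal 78 thus stood above every HSC cell, as the only Mesenchymal cell to do so, although most Mesenchymal cells had little or none. Among cells with at least 5 counts, the median was 176 CPM in HSC and 140 CPM in Mesenchymal.

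At the group level Angpt1 stood at 231 CPM (228 to 235) in HSC, 64.2 CPM (62.3 to 66.1) in Mesenchymal, 1.93 CPM (1.68 to 2.21) in Dorsal and, in Ventral, 2.94 CPM (2.63 to 3.28). HSC was higher than Mesenchymal by 1.83 on the log2 scale, an unlogged ratio of 3.605 (3.49 to 3.73), and it was higher by 6.31 than Dorsal and by 5.88 than Ventral. The deepest HSC cell, HSC 23, held 26.7% of the HSC Angpt1 counts, and without it the HSC level was 186 CPM. Mesenchymal was higher than Dorsal by 4.48 and than Ventral by 4.05 on the log2 scale, where 6.62% of 13316 genes were higher in Mesenchymal than in both by this 2-fold measure and 10.1% lower. For HSC against both Ngfr+ groups, 8.46% of 13357 genes were higher and 16.9% lower. After thinning, 59 of 64 HSC cells were Angpt1 positive (92.2%, 82.7 to 97.4), against 20 of 69 Mesenchymal (28.99%, 18.7 to 41.2), 2 of 92 Dorsal (2.17%) and 6 of 80 Ventral cells (7.5%).

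The size of the HSC to Mesenchymal difference in Angpt1 moved with the cells used, their weight and the measure. On the log2 scale it was 0.75 in cells with an odd i7 index and 3.02 in cells with an even one. It was 1.25 with every cell weighted equally and 4.31 as the difference of means in the authors' log2 table. HSC was higher in each of these settings. In Dorsal, 79.6% of the Angpt1 counts came from the cell Dorsal 63, and without it the level was 0.399 CPM. Of the 6 Angpt1-positive Ventral cells, the 3 with the highest levels (Ventral 52, 38 and 40, at 259, 103 and 75.97 CPM) had at least 5 counts of 9 or 10 of 18 mesenchymal markers. The other 3, Ventral 25, 51 and 80, had 5, 6 and 7 of them, against a median of 4 in Ventral. The part of these cells in the Ventral level was not tested.

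Per length of the longest coding transcript, the HSC group level was 28.5 CPM per kb for Tek, 33.6 CPM per kb for Tie1 and 54.3 CPM per kb for Angpt1. In the median HSC cell the same quantity was 13.6 CPM per kb for Tek, 34 CPM per kb for Tie1 and 32.5 CPM per kb for Angpt1. The ligand thus led in the sum over cells and stood close to Tie1 in the median cell, while Tek was lowest in both. Per length of all exons of the gene, the HSC group levels were 28.2 CPM per kb for Tek and 28.9 CPM per kb for Tie1. That of Angpt1 was 44.4 CPM per kb, so with this length Tek and Tie1 were nearly equal in the sum.

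The receptors and the ligand were found in the same HSC cells. Of 64 HSC cells, 40 were positive for Tek, Tie1 and Angpt1 together, 15 for Tie1 and Angpt1 without Tek, 3 for both receptors without Angpt1, 2 for Tek and Angpt1 without Tie1, 2 for Angpt1 alone, 1 for Tie1 alone and 1 for none. No HSC cell was positive for Tek alone. Without thinning, 46 of 65 HSC cells had at least 5 counts of all 3 genes. In the other groups no cell was positive for all 3: among 69 Mesenchymal cells 20 had Angpt1 alone and 49 had none, among 92 Dorsal cells 87 had none, and among 80 Ventral cells 72 had none and 1, Ventral 57, had both receptors.

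**Figure D2:**
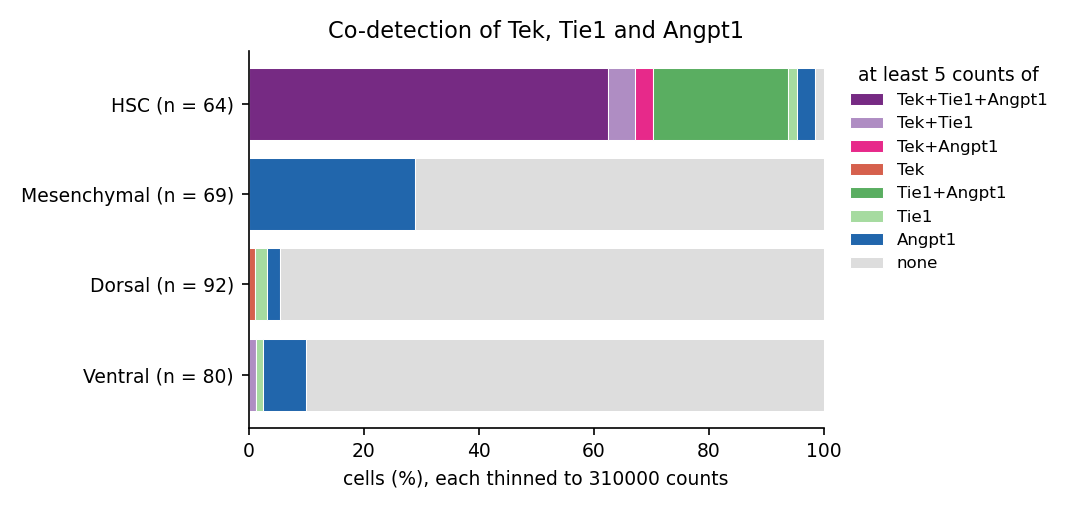
Share of cells (percent) with each combination of Tek, Tie1 and Angpt1 at 5 counts or more, each cell thinned to 310000 counts, in 64 HSC, 69 Mesenchymal, 92 Dorsal and 80 Ventral cells. The bar for all 3 genes, 40 cells, is in HSC, and the Mesenchymal bar holds only Angpt1 (20 cells) and none (49 cells).

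Both receptors together were in 43 of 64 HSC cells (67.2%, 54.3 to 78.4). Tie1 was positive in 43 of 45 Tek-positive cells (95.6%) and in 16 of 19 Tek-negative cells (84.2%). The limits of these shares overlap, but cells of 1 pool are not replicates, so nothing is decided by them. Tek with Angpt1 was in 42 of 64 HSC cells (65.6%, 52.7 to 77.1), and Angpt1 was positive in 93.3% of Tek-positive and 89.5% of Tek-negative cells. Tie1 and Angpt1 were each in 59 of 64 cells, so a high share of cells with either beside Tek follows from those shares. The levels moved together little: Spearman's rho over the 64 cells, which share 1 pool, was 0.22 for Tek and Tie1, -0.11 for Tek and Angpt1 and -0.08 for Tie1 and Angpt1. The rho of each gene with the cell's total count was -0.01 for Tek, 0.03 for Tie1 and 0.08 for Angpt1.

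**Figure D3:**
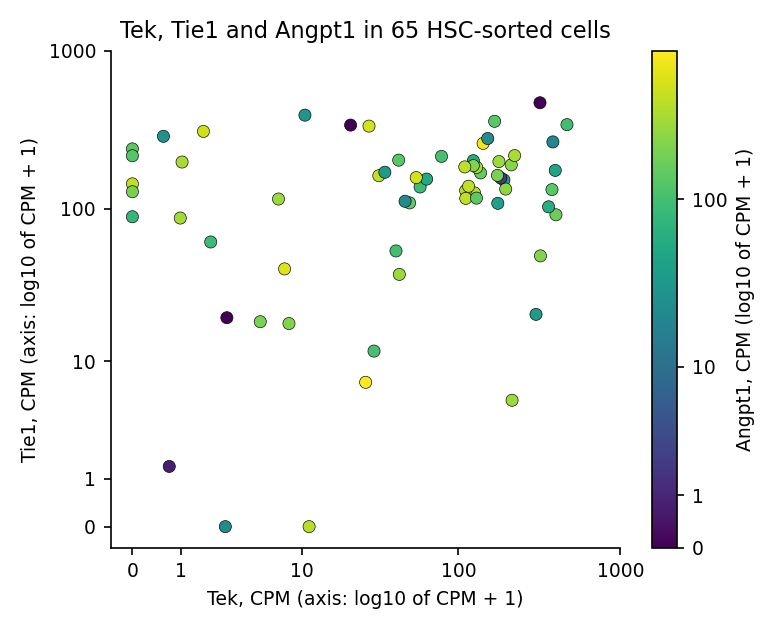
Tie1 against Tek in 65 HSC cells, both as CPM on axes of log10 of CPM + 1, with Angpt1 CPM as the colour. Tie1 runs from 0 to 469 CPM and Tek from 0 to 469 CPM, with a rho of 0.22 over the 64 thinned cells.

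Genes whose level over the 64 thinned HSC cells was most like that of a member were ranked among 7279 genes, whose 99th percentile of rho was 0.331 for Tek, 0.361 for Tie1 and 0.331 for Angpt1. For Tek the 5 highest were Tgm2 (rho 0.52), Nrep (0.48), Gja5 (0.48), Col4a1 (0.46) and Sox7 (0.46). Gja5 encodes a gap junction protein of arterial endothelium, Col4a1 a chain of basement membrane collagen and Sox7 an endothelial transcription factor. For Tie1 they were Cdh5 (0.62), Mogat2 (0.59), Col4a2 (0.57), Rnf149 (0.53) and Procr (0.53). Cdh5 encodes VE-cadherin, the adhesion molecule of endothelial junctions, and Procr was a gene of the sort. For Angpt1 they were Dnaja1 (0.51), Dhx9 (0.49), Zc3h4 (0.43), Hspe1 (0.42) and Ccl9 (0.42), of which Dnaja1 and Hspe1 encode chaperones and Ccl9 a chemokine. No gene stood in the first 5 of more than 1 member.

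Endothelial and blood markers were set against the members in the same cells. Of 20 endothelial markers positive in at least 25% of HSC cells, 17 had a rho above 0 with Tie1 (median 0.28), 15 with Tek (median 0.13) and 6 with Angpt1 (median -0.11), while the median over all 7279 genes was 0.049 for Tie1, 0.036 for Tek and 0.037 for Angpt1. For Angpt1 the endothelial markers ran from -0.31 (Egfl7) to 0.28 (Erg). Of 15 haematopoietic stem and progenitor markers, 9 had a rho above 0 with Tek (median 0.111), 10 with Tie1 (median 0.083) and 12 with Angpt1 (median 0.065). For Tek the highest of these was Kit (0.33), the receptor of stem cell factor, and the lowest was Flt3 (-0.33), a receptor of lymphoid and myeloid progenitors. Since the medians over all genes were above 0, most genes had a rho above 0 with each member. Their share was not counted, so the numbers of markers above 0 are given as values only. These are descriptions over cells of 1 pool.

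Of 8 ligands and receptor partners measured, 0 were at least 2-fold higher in HSC than in each other group and 2 were at least 2-fold lower, Angpt2 and Itgav. Of all 13446 genes, 6.79% were higher and 11.3% lower in this way, so with 8 genes neither count is read as particular to the list. Itgav, an integrin chain, stood at 13.5 CPM in HSC, 99.9 CPM in Mesenchymal, 79.4 CPM in Dorsal and 50.6 CPM in Ventral. Adam10, a protease that sheds many cell surface proteins, stood at 184 CPM in HSC, 103 CPM in Mesenchymal, 93.1 CPM in Dorsal and 96.2 CPM in Ventral. Against Mesenchymal alone, 0 of the 8 were higher and 3 lower in HSC, with a median log2 fold of -0.56, where 16.6% of 12758 genes were higher and 22.6% lower, with a median of -0.10.

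Of 23 genes of Tie receptor signalling, 3 were at least 2-fold higher in HSC than in each other group (Pik3cb, Dok2 and Pik3r1) and 3 lower (Pik3r2, Akt2 and Grb14), beside 6.79% of all genes higher and 11.3% lower. The share of lower members is near that of all genes. Dok2, an adaptor that docks on activated Tek, stood at 111 CPM in HSC, 1.78 CPM in Mesenchymal, 12.98 CPM in Dorsal and 13.5 CPM in Ventral. It was positive in 56 of 64 HSC cells, and it is also known from blood cells. Pik3cb, a catalytic subunit of phosphoinositide 3-kinase, stood at 50.6 CPM in HSC, 0.721 CPM in Mesenchymal, 1.70 CPM in Dorsal and 1.77 CPM in Ventral. Pik3r2, a regulatory subunit, stood at 0.955 CPM in HSC and 12.4 CPM in Mesenchymal. The median log2 fold of the 22 measured against Mesenchymal was 0.24, and that of all genes was -0.10.

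**Figure D4:**
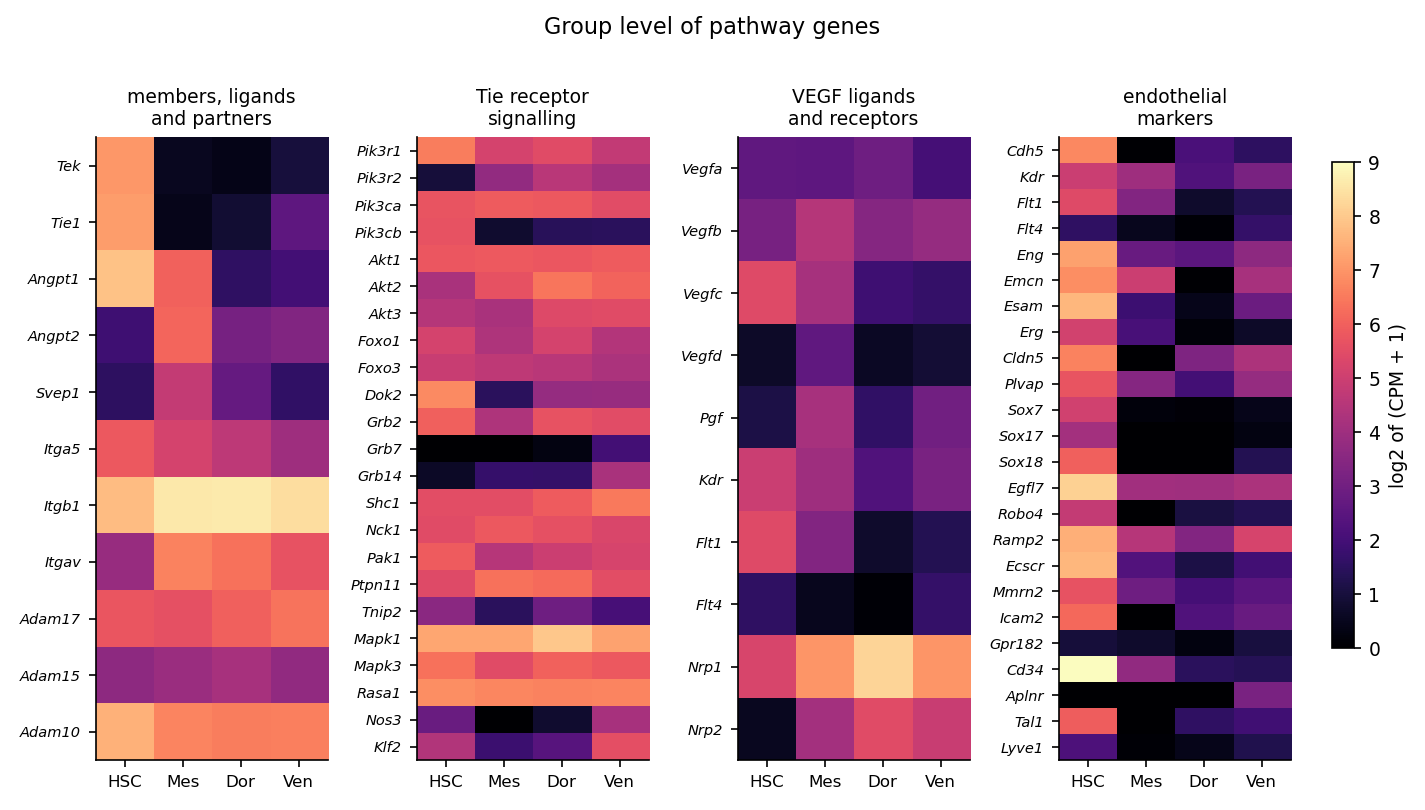
Group level, as log2 of CPM + 1, of the members with their ligands and partners, of Tie receptor signalling, of VEGF ligands and receptors and of endothelial markers without Pecam1, in HSC, Mesenchymal (Mes), Dorsal (Dor) and Ventral (Ven). Lighter is higher. Tek and Tie1 are light in HSC alone, Angpt1 in HSC and Mesenchymal, and Angpt2 in Mesenchymal, where it stood at 67.8 CPM.

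Angpt2, the other angiopoietin with an entry, was low where the receptors were high. It ranged from 0 to 88.6 CPM per cell in HSC, from 0 to 1152 CPM in Mesenchymal, from 0 to 97.4 CPM in Dorsal and from 0 to 138 CPM in Ventral, each with a median of 0. The group level was 2.67 CPM (2.33 to 3.04) in HSC, 67.8 CPM (65.9 to 69.8) in Mesenchymal, 7.65 CPM (7.14 to 8.20) in Dorsal and, in Ventral, 9.16 CPM (8.60 to 9.74). HSC was lower than Mesenchymal by 4.23 on the log2 scale (log2 fold -4.23), while for Angpt1 HSC was higher by 1.83. Per length the Mesenchymal level was 15.1 CPM per kb for Angpt1 and 19.05 CPM per kb for Angpt2. After thinning, Angpt2 was positive in 1 of 64 HSC, 18 of 69 Mesenchymal, 11 of 92 Dorsal and 19 of 80 Ventral cells.

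Angpt1 and Angpt2 were set against each other in Mesenchymal cells. Of 69 cells, 3 were positive for both, 17 for Angpt1 alone, 15 for Angpt2 alone and 34 for neither, with a rho of -0.14. Angpt2 was in 15% of Angpt1-positive cells (3.21 to 37.9) and in 30.6% of Angpt1-negative cells (18.3 to 45.4). These limits overlap, but they cover counting error over cells of 1 pool only. Neither a separation of the 2 ligands nor its absence is read from them. The comparison with Acta2, the actin of smooth muscle and contractile mural cells, was chosen after its values were seen. Acta2 was positive in 2 of 20 Angpt1-positive cells (10%, 1.23 to 31.7) and in 29 of 49 Angpt1-negative cells (59.2%, 44.2 to 73), with a rho of -0.47. It was positive in 15 of 18 Angpt2-positive cells (83.3%, 58.6 to 96.4) and in 16 of 51 Angpt2-negative cells (31.4%, 19.1 to 45.9), with a rho of 0.48.

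The direction of the Acta2 difference between these cells held without thinning and its size did not. At least 5 Acta2 counts were in 10 of 27 Angpt1-positive cells (37.04%) and 43 of 61 Angpt1-negative cells (70.5%). With a threshold of 1 count after thinning, Acta2 was in 19 of 23 Angpt1-positive and 43 of 46 Angpt1-negative cells. Most cells of both kinds thus had at least 1 Acta2 count, and whether such low counts are expression was not tested. Of 15 mesenchymal and pericyte markers positive in at least 25% of cells, 5 had a rho above 0 with Angpt1 and 13 with Angpt2. The medians were -0.14 and 0.33, and Acta2 was the lowest with Angpt1 and the highest with Angpt2. Over all 7186 genes positive in at least 25% of cells the median was -0.021 for Angpt1, and none was computed for Angpt2. The share of all genes above 0 was computed for neither, so the numbers of markers above 0 are given as values only. Pdgfra (rho 0.22) and the muscle filament gene Des (rho 0.16, positive in 12 of 20 Angpt1-positive and 22 of 49 Angpt1-negative cells) went the other way from Acta2 with Angpt1. Tagln, another smooth muscle gene, was positive in 7 of 20 Angpt1-positive and 35 of 49 Angpt1-negative Mesenchymal cells, and in 15 of 18 Angpt2-positive and 27 of 51 Angpt2-negative ones. Ptn, which encodes the secreted growth factor pleiotrophin, was positive in 19 of 20 Angpt1-positive and 37 of 49 Angpt1-negative cells, and in 10 of 18 Angpt2-positive and 46 of 51 Angpt2-negative ones. The median total count was 584234 in Angpt1-positive and 589848 in Angpt1-negative Mesenchymal cells, before thinning. These genes are on lists chosen with results of these cells known, and all cells come from 1 pool.

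**Figure D5:**
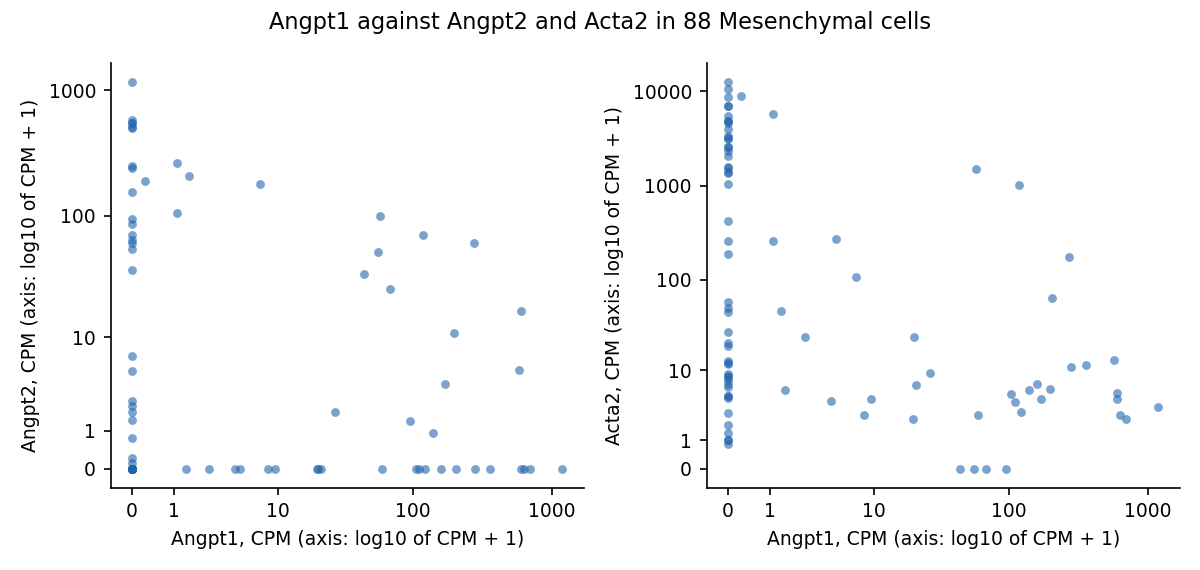
Angpt2 (left) and Acta2 (right) against Angpt1 in 88 Mesenchymal cells, not thinned, all as CPM on axes of log10 of CPM + 1. Each point is a cell. Cells with the highest Angpt2 or Acta2 stand at 0 or low Angpt1, and 49 of the 88 cells have no Angpt1 count.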

How the data were processed

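Each of the 335 samples is 1 cell, numbered here in accession order within its group. Per the submitters' processing notes, the authors used kallisto 0.43.1 and GRCm38 for the deposited estimated counts. How transcripts were summed to genes, the annotation and the filters are not given in the sources used here. In the deposited log2 table each value is log2(count / size factor + 1), with 1 size factor per cell, which the values of both tables bear out. It was used for 1 alternative only.

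Counts of the 13448 entries with a symbol were summed per group. The 661 entries without one, with 2.96% of counts, were left out. Summing weights deep cells more: the deepest cell held 8.60% of counts in HSC, 9.04% in Mesenchymal, 3.56% in Dorsal and 18.5% in Ventral. Folds are log2 ratios of (CPM + 1), with a pseudocount of 1 CPM, for genes that reach 100 counts over the compared groups. Genes past 2-fold were counted. Shares are of cells with at least 5 counts after thinning to 310000 counts (seed 1), with exact Clopper-Pearson 95% limits. Limits and floors cover counting error only, and no molecular identifiers were available to tell copies apart.

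With 1 sample per group, nothing was tested. Cells were sorted singly into wells, and doublets were not called. Within groups no pair of cells correlated above 0.743, so no cell repeated another of its group. Pecam1 is not counted among markers per cell, since it was high in every group.

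The members, the gene lists and the rule for named genes were chosen with earlier results of these data known. The rule takes the 5 genes with the highest Spearman correlation of thinned counts with a member, among genes positive in at least 25% of the cells kept. From each list it takes up to 4 genes with the largest fold in each direction and up to 4 most often found with a member. Ventral 57 and the other single cells, the genes named in Ventral 57, the genes at the ends of a range of correlations, and the comparison of Acta2, Tagln, Des, Pdgfra, Ptn and Angpt2 with Angpt1 were chosen after values were seen. Alternatives changed the weight of cells, the deepest cells, the totals, the wells used, the pseudocount, the thinning, the detection threshold and the table. Python 3.11.15, numpy 2.4.6, scipy 1.17.1, pandas 2.3.3 and matplotlib 3.10.9 were used.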

Additional observations from a re-analysis of the deposited data

How the results depend on the processing

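The 5 log2 folds of the members kept their direction under all 52 alternatives computed, and none reversed, but 41 moved by more than counting error. With Tek as HSC against the highest other group, the fold was 4.94 with cells weighted equally, 6.24 without Dock10 and Cep97 in the totals, 6.39 in odd and 5.44 in even i7 wells, 6.90 and 3.70 with pseudocounts of 0.1 and 10 CPM, 5.14 after thinning, 6.50 without Ventral 57 and 5.45 in the authors' log2 table. For Tie1 the same settings gave 3.69, 4.74, 6.78, 3.39, 4.81, 3.35, 3.57, 6.30 and 6.53. For Angpt1 in HSC against Mesenchymal the fold was 1.25 with cells weighted equally, 1.38 without the deepest cell of each group, 0.75 in odd and 3.02 in even wells, 1.70 with a pseudocount of 10 CPM, 1.16 after thinning and 4.31 in the log2 table. For Angpt1 in HSC against the higher Ngfr+ group it was 4.88, 5.34 and 6.05 with equal weights, without the deepest cells and without Dock10 and Cep97, 6.92 in odd and 5.37 in even wells, 6.25 and 4.22 with pseudocounts of 0.1 and 10 CPM, 4.73 after thinning and 6.54 in the log2 table. For Angpt1 in Mesenchymal against the higher Ngfr+ group it was 3.62 with equal weights, 6.17 in odd and 2.34 in even wells, 4.40 and 2.52 with both pseudocounts, 3.57 after thinning and 2.24 in the log2 table. Without Dock10 and Cep97 in the totals, Tek rose from 133 to 155 CPM in HSC and from 1.01 to 1.07 CPM in Ventral. These 2 genes thus held a larger part of the HSC total than of the Ventral total. A larger pseudocount lowers these folds by construction, and the cause of the other shifts was not tested.

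Of 48 alternatives for shares and co-detections, 41 stayed within counting limits. With a threshold of 1 count the Tek share of HSC cells was 85.9%, and Tek with Tie1 and Tek with Angpt1 were each in 81.2% of cells. Tek with Angpt1 was in 52.3% after thinning to 150000 counts, and Tie1 was in 100% of odd-well HSC cells. Acta2 with Angpt1, in 2.90% of Mesenchymal cells as reported, was in 27.5% at 1 count and 11.4% without thinning. The 16 alternative counts of genes past 2-fold stayed within 1.5 times. No paired analysis was possible because no result comes from a test and cell numbers are not shared replicates. Depth limits the negative calls: 5 counts in 310000 is the smallest level called, and Tek was below it in some HSC cells with counts.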

Other observations

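VEGF signalling is the other main receptor system of endothelium. Of its 10 ligands and receptors measured, 2 were at least 2-fold higher in HSC than in each other group (Flt1 and Vegfc) and 2 at least 2-fold lower (Nrp1 and Nrp2), beside 6.79% of all genes higher and 11.3% lower. With 10 genes these counts are given as values only. Flt1, a VEGF receptor, stood at 42.3 CPM in HSC, 9.44 CPM in Mesenchymal, 0.68 CPM in Dorsal and 1.51 CPM in Ventral. Vegfc, a ligand best known from lymphatic growth, stood at 42.3 CPM in HSC, 16.7 CPM in Mesenchymal, 2.69 CPM in Dorsal and 2.18 CPM in Ventral. Nrp1, a co-receptor, stood at 36.97 CPM in HSC, 128 CPM in Mesenchymal, 293 CPM in Dorsal and 127 CPM in Ventral. Over the 64 thinned HSC cells Vegfc had a rho of 0.39 with Tie1 and 0.29 with Tek.

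In Mesenchymal cells the genes most like Angpt1, among 7186 genes over 69 cells with a 99th percentile of rho of 0.274, were Glmp (0.44), Fgd4 (0.42), Pygo2 (0.39), Bri3 (0.39) and F11r (0.39). None of these 5 is among the 5 most like Angpt1 in HSC cells.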
